A study of Homo sapiens with 8 samples.

Results

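The interferon-stimulated genes examined here are 39 named genes, taken from a list of symbols and looked up among the 56632 genes of the count table. Each of the 39 symbols matched 1 Ensembl identifier. Of the 39 genes, 38 had a count in at least 1 library and 37 passed the filter on low counts and were tested. CMPK2, which encodes a mitochondrial nucleotide kinase, was listed at 0 counts in all 8 libraries, and XAF1, which encodes a pro-apoptotic zinc finger protein, was counted only in replicate 1 of M4.

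The genes were followed through a breast cancer progression series of 4 related human cell lines, with 2 biological replicates of each line and poly A+ RNA-seq of all 8 cultures. M1 is MCF10A, an immortalized mammary epithelial line that does not form tumors, and M2 is MCF10AT1k.cl2, made from MCF10A by transfection of activated T24-HRAS and passage as a xenograft. M3 (MCF10Ca1h) and M4 (MCF10CA1a.cl1) were both taken from carcinomas that grew out of M2 xenografts, so that M2, M3 and M4 all come from HRAS-transfected cells. All lines were grown as acini in Matrigel with 2% horse serum, for 8 days according to the methods. M1 and M2 received EGF at 10 ng/ml and M3 and M4 received none, so in M3 or M4 against M1 the line and the medium cannot be told apart, whereas M2 against M1 and M4 against M3 compare lines in the same medium. Each line stands for its stage as 1 cell line only. The p-values rest on a spread between replicates that was estimated over all 4 lines together and partly shared across genes. They do not rest on the 2 replicates of a line alone. The spread was unequal between lines. Estimated per line over the tested genes, the coefficient of variation between replicates was 0.3765 (M1), 0.058 (M2), 0.307 (M3) and 0.271 (M4). The M2 pair, the closest, thus enters the shared spread also in comparisons that leave M2 out.

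Interferons are secreted proteins that cells release when their sensors detect foreign or misplaced nucleic acid. Type I and type III interferons bind their own receptors and, through the kinases JAK1 and TYK2, activate STAT2, which acts with IRF9 in the complex ISGF3. ISGF3 binds the interferon-stimulated response element, a repeated GAAA motif in the promoters of antiviral genes, and many of its targets, such as STAT2, IRF7 and IRF9 themselves, belong to the same response. In epithelial cells the response is known as a first barrier against viruses, and sets of these genes also run at a raised level in some tumors without an infection.

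RefSeq promoter windows, from 250 bases before to 50 bases after a start site on GRCh38.p14, were held for 30 of the 39 genes. The core of the response element was searched on both strands, as GAAA and again GAAA with any 2 bases between them, or TTTC and again TTTC with any 2 bases between them, and overlapping matches were counted. It was found for 22 of these 30 genes (73.3%), against 4.38% of all 27305 genes with a window. STAT2, IRF9, OAS1, UBE2L6, HERC6, CMPK2, XAF1 and SAMD9L had a window without these letters. The stretches around the matches are given for the 5 genes with the widest ratio between the M4 replicates (IFI6, IFI27, IFIT1, IFI44L and RSAD2), for ISG15, and for BST2 and DTX3L, which were high in both M4 replicates. Each is 5′ to 3′ on the gene's strand, and capitals mark the core. In order, they lie at chr1:27672256-27672368 on the minus strand, chr14:94110608-94110670, chr10:89392487-89392549, chr1:78620264-78620404, chr2:6877612-6877661 and chr1:1013364-1013419 on the plus strand, chr19:17405725-17405780 on the minus strand and chr3:122564312-122564361 on the plus strand.
IFI6: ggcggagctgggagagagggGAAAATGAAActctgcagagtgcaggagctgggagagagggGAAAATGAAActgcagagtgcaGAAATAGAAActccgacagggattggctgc
IFI27: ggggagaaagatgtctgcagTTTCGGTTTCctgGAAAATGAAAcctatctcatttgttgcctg
IFIT1: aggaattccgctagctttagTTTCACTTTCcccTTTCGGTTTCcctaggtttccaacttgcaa
IFI44L: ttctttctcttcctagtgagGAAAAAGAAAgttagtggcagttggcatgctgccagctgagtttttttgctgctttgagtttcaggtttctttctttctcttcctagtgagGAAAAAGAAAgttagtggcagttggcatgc
RSAD2: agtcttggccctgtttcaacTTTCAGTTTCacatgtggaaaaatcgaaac
ISG15: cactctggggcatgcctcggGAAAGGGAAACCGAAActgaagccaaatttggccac
BST2: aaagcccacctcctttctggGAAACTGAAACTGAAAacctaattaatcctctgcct
DTX3L: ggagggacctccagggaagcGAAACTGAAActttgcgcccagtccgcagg

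IFI6 held 3 copies of the core, the others 1 or 2, and the copies of ISG15 and of BST2 overlapped each other. The match of DTX3L was also that of PARP9, which lies on the opposite strand and whose window holds the same 50 bases upstream of its start. The core was present both in genes that differed widely between the M4 replicates and in genes that did not, such as IFIT5 and LGALS3BP.

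**Figure D1:**
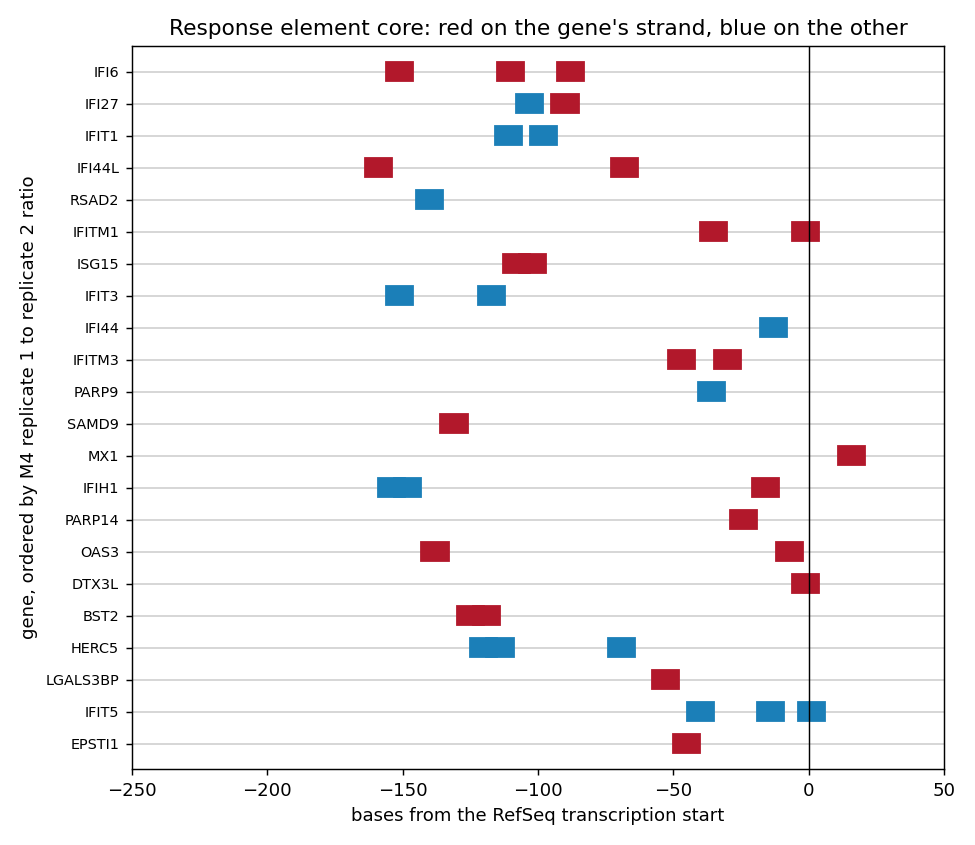
Position of each match to the response element core in the RefSeq promoter windows of the 22 genes with a match, in bases from the start site, with red for the gene's strand and blue for the other strand. Genes are ordered from the widest M4 replicate 1 to replicate 2 ratio at the top (IFI6) to genes near a ratio of 1 (IFIT5), with EPSTI1 last because it had too few counts in M4 for a ratio, and the matches lie before the start or cross it, except that of MX1, which lies after it.

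The libraries held 69669970 (M2 replicate 2) to 107350344 (M4 replicate 1) counts, with a median of 84947230. Levels are given as CPM, counts scaled by the library size after TMM normalization, always with replicate 1 before replicate 2. The 6 epithelial markers were counted in every library, for example KRT5 at 2837 to 9189.6 CPM and KRT14 at 2.30 to 99.7 CPM. A gene table of the study assigns the library labelled M1 replicate 2 to M2 replicate 1 and the reverse, while the sample labels are used here, so each total of genes called between lines over all 8 libraries is also given with these 2 libraries exchanged. The 39 genes together took 0.0716% and 0.114% of the counts (M1), 0.0994% and 0.0980% (M2), 0.0931% and 0.0988% (M3) and 0.212% and 0.106% (M4). M4 replicate 1 thus stood apart from the other 7 libraries, M4 replicate 2 among them. In bulk RNA, a change in the fraction of responding cells and a change in RNA per cell cannot be told apart.

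**Figure D2:**
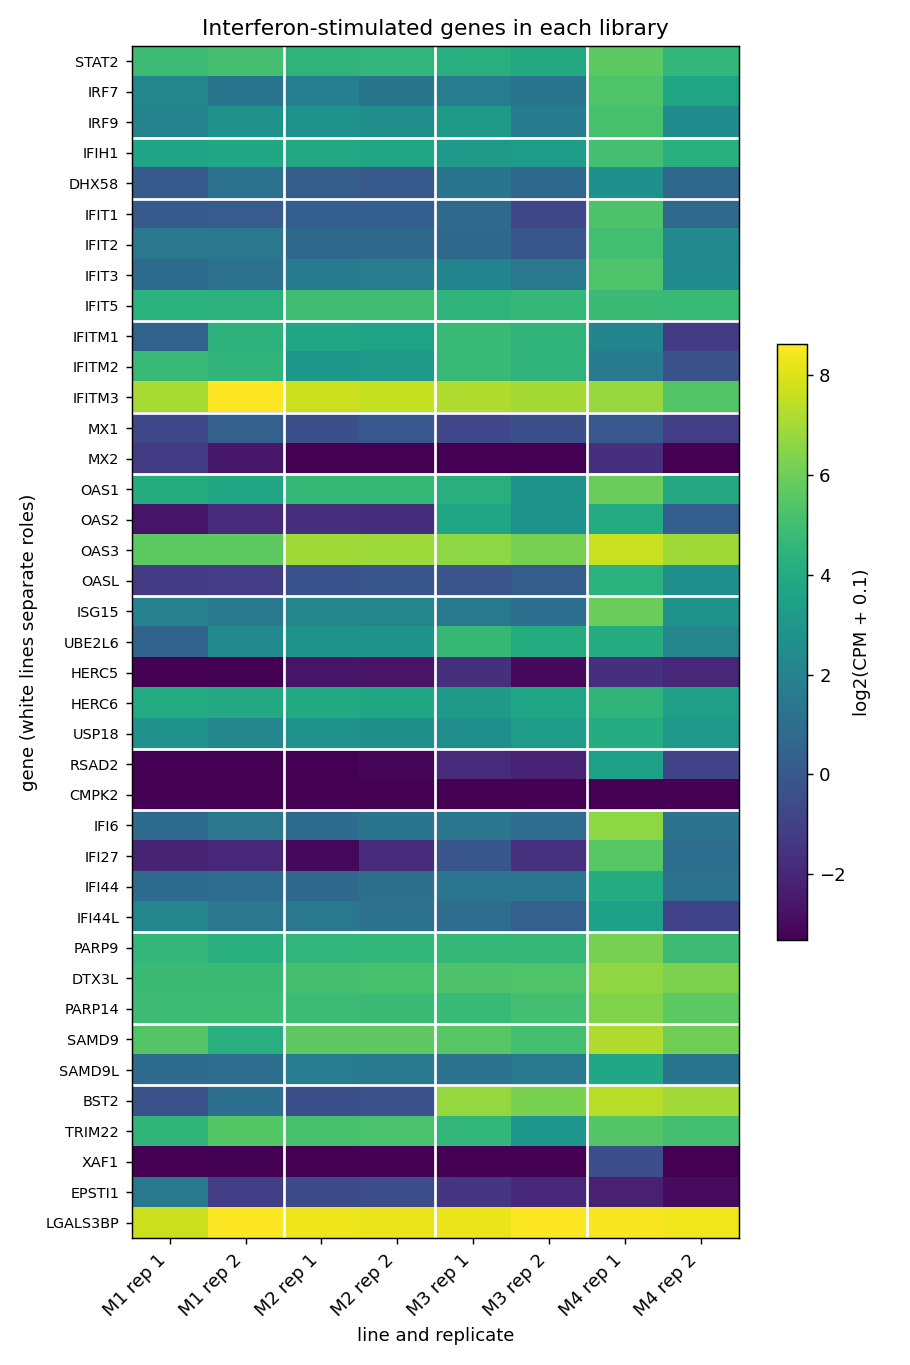
Level of each of the 39 genes (rows, in groups by role) in each of the 8 libraries (columns), as log2(CPM + 0.1). The column of M4 replicate 1 is the brightest for 26 of the 37 tested genes, and BST2 is bright in M3 and M4 only.

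The 2 M4 replicates differed in nearly the whole group. Among genes with at least 20 counts in 1 of the M4 replicates, all 37 interferon-stimulated genes that met this level were higher in replicate 1, with a median log2 ratio of 1.67 (0.1 CPM added) against 0.01 over all 16286 genes. XAF1, MX2 and HERC5 met this level only through replicate 1, which fixed their direction. In 27 of the 37, XAF1 and MX2 among them, the ratio was over 2-fold, against 6.45% of all genes. None was over 2-fold lower, against 1.72%. IFI6, IFI27, IFIT1 and IFI44L ranked 1 to 4 of the 16286 genes by this ratio, and 13 of the 50 highest genes were interferon-stimulated genes of the list. M4 replicate 1 was the highest of the 8 libraries for 26 of the 37 tested genes, against 14.8% of all tested genes, and M4 replicate 2 was the highest for none. This is a comparison of 2 libraries and has no replicate of its own.

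In the other lines the median ratio of these genes was nearer to 0. Of 33 of the genes with enough counts in M1, 3 were over 2-fold higher in replicate 1 (6.05% of all genes) and 6 lower (6.70%). In M2, 0 of 33 were over 2-fold higher (1.63%) and 0 lower (1.17%), and in M3, 5 of 34 were higher in replicate 1 (5.39%) and 0 lower (3.89%). The median log2 ratio was -0.08 in M1, 0.01 in M2 and 0.40 in M3, against 0.00 over all genes in M3, so the genes also leaned towards replicate 1 in M3. M4 replicate 1 was also the most deeply counted library. With total counts in place of TMM scaling 27 genes were again over 2-fold higher, but this changes only the scaling and does not equalize depth. An effect of depth was not tested.

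**Figure D3:**
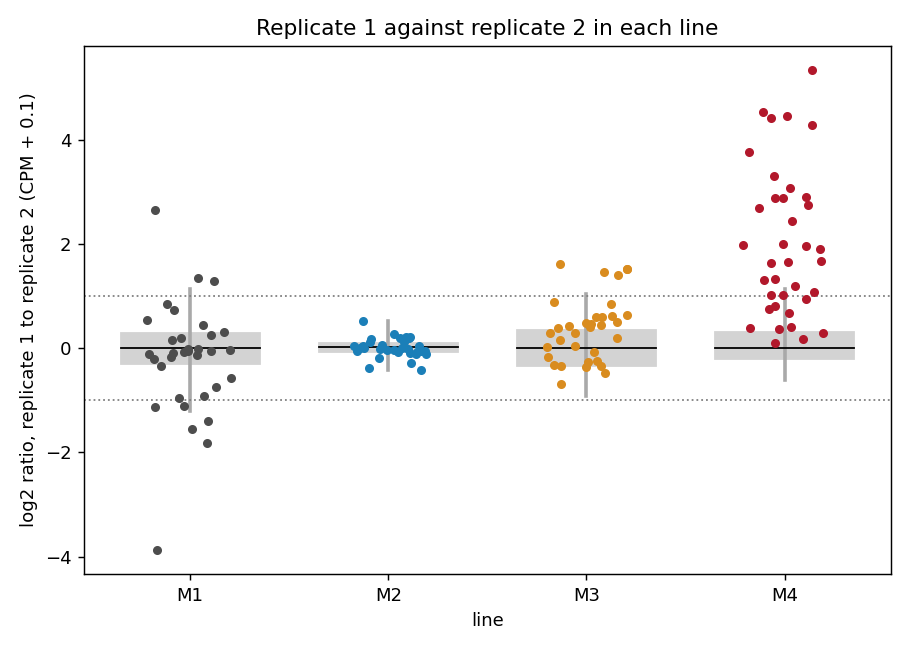
Log2 ratio of replicate 1 to replicate 2 (CPM + 0.1) in each line, with a point for each interferon-stimulated gene with at least 20 counts in 1 of the replicates. Grey boxes span the quartiles of all genes, grey bars the 5th to the 95th percentile, black lines their median and dotted lines 2-fold; in M4 all 37 points are above 0, from 0.10 to 5.34.

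The genes at the top of this ratio are given with their values in every library. IFI6, which encodes a small membrane protein of the endoplasmic reticulum and mitochondria (GRCh37 chr1:27992575-27998723, as for the other gene positions below), was at 1.70 and 2.57 CPM (M1), 1.72 and 2.32 (M2), 2.46 and 1.83 (M3) and 96.5 and 2.28 (M4). IFI27 (chr14:94571182-94583032), an interferon-inducible protein of the same family, was at 0.121 and 0.159 CPM (M1), 0.0196 and 0.185 (M2), 0.808 and 0.230 (M3) and 45.7 and 1.87 (M4). For IFI6 the level of M4 replicate 2 lay within the range of M1, whereas for IFI27 both M4 replicates lay above every other library.

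IFIT1, which binds viral RNA that lacks cap methylation (chr10:91152303-91166244), was at 0.931 and 0.988 CPM (M1), 1.08 and 1.09 (M2), 1.58 and 0.482 (M3) and 38.98 and 1.67 (M4). IFI44L (chr1:79085587-79111830), an interferon-inducible gene whose product is less well understood, was at 4.35 and 2.57 CPM (M1), 2.64 and 2.17 (M2), 1.82 and 1.16 (M3) and 11.4 and 0.436 (M4). IFI44L was the highest of the 8 libraries in M4 replicate 1 and the lowest in M4 replicate 2. Tested against M1 with M4 replicate 1 alone, IFI44L was called higher (log2 fold change 1.73, adjusted p = 0.0437, edgeR), and with replicate 2 alone it was called lower (-2.98, adjusted p = 0.0198).

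RSAD2 encodes viperin, a radical SAM enzyme that makes a chain-terminating nucleotide (chr2:7005688-7038370). It had 0 and 0 counts (M1), 0 and 1 (M2), 14 and 11 (M3) and 1204 and 35 (M4). Against a floor of 3 counts per library in M1, RSAD2 was at least 291-fold higher in M4 replicate 1 and at least 12.3-fold higher in M4 replicate 2. XAF1 had 72 counts in M4 replicate 1 and 0 in the other 7 libraries, at least 16.5-fold more than M4 replicate 2. RSAD2 overlaps CMPK2 on the opposite strand, and the sources do not state whether counting used strand.

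In M2 against M1, the first step of the series and with EGF in both, 1 of the 37 tested genes was called higher (2.26% of all 18431 genes tested) and 0 lower (1.11%). At an unadjusted p under 0.05 these counts were 3 and 2 in edgeR, and DESeq2 called OAS3 higher and IFITM2 lower. Apart from tests with 1 M4 replicate alone, no share over all genes is given for unadjusted, DESeq2 or other alternative counts. Such counts, here and below, cannot be set against a rate over all genes. Calls rest on edgeR's quasi-likelihood test, with an adjusted p under 0.05 and a change above 2-fold. The gene was OAS3, an oligoadenylate synthetase whose product activates RNase L (chr12:113375856-113414265), at 48.8 and 49.95 CPM (M1), 122 and 119 (M2), 96.4 and 71.8 (M3) and 198 and 123 (M4). M2 did not overlap M1, with a log2 fold change of 1.29 (SE 0.236, adjusted p = 0.0253). With the 2 libraries exchanged the value was -0.019 (adjusted p = 1), and 0 genes were called. Without M1 replicate 2, M2 replicate 1 or M2 replicate 2, 0 genes were called, and without M1 replicate 1 the 1 gene called was BST2, as lower. The median log2 fold change was 0.11, against -0.04 over all genes tested.

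In M3 against M1, 3 genes were called higher (8.02%) and 0 lower (5.51%), with a median log2 fold change of 0.19 against -0.02. At an unadjusted p under 0.05 the counts were 7 and 3 in edgeR, and DESeq2 called 6 higher and 1 lower (EPSTI1). The 3 were BST2, OAS2 and UBE2L6. BST2 encodes tetherin, which holds budding virus particles at the cell surface (chr19:17513748-17516439), and was at 0.689 and 1.96 CPM (M1), 0.648 and 0.697 (M2), 105 and 75.8 (M3) and 163 and 125 (M4). All 4 libraries of M3 and M4 stood far above the 4 of M1 and M2. BST2 in M3 against M1 had a log2 fold change of 6.09 (SE 0.482, adjusted p = 0.000547), and it was called under all 11 alternatives.

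OAS2, a second oligoadenylate synthetase (chr12:113416200-113449528), was at 0.0604 and 0.171 CPM (M1), 0.206 and 0.199 (M2), 13.1 and 7.003 (M3) and 16.2 and 1.09 (M4). M3 and M4 lay above M1 and M2, and within M4 the replicates were 14.9-fold apart. The log2 fold change of OAS2 in M3 against M1 was 6.43 (SE 1.33, adjusted p = 0.0161). UBE2L6, the E2 enzyme that passes ISG15 to its targets (chr11:57319129-57335757), was at 1.34 and 5.01 CPM (M1), 6.92 and 7.14 (M2), 25.7 and 16.5 (M3) and 17.0 and 4.28 (M4). UBE2L6 was highest in M3 (log2 fold change 2.73, SE 0.778, adjusted p = 0.0458), while the replicates of M4 spread across the levels of M1 and M3. The call of UBE2L6 was lost in 6 of the 11 alternatives, among them leaving out M1 replicate 1, M3 replicate 1 or M3 replicate 2, with adjusted p from 2.12e-17 to 0.209 over the 11. With the exchange, and again without M1 replicate 1, BST2 was the 1 gene called in M3 against M1.

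**Figure D4:**
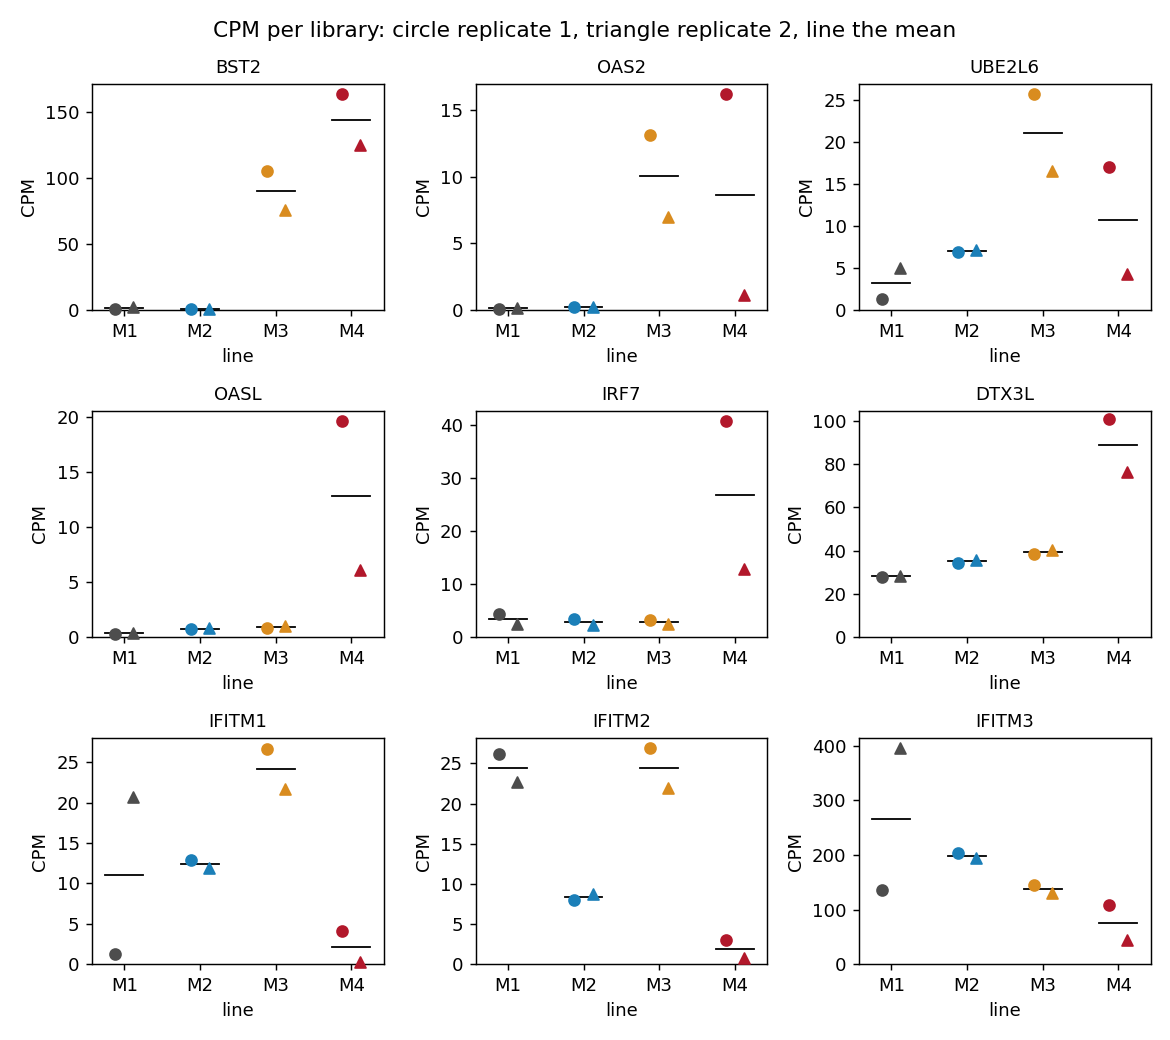
CPM of 9 interferon-stimulated genes by line, with circles for replicate 1, triangles for replicate 2 and a bar at the mean of the 2. BST2 is at 75.8 CPM or more in every M3 and M4 library and under 2 CPM in every M1 and M2 library, OASL, IRF7 and DTX3L are higher in both M4 replicates than elsewhere, and IFITM2 is lowest in M4.

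In M4 against M1, 20 genes were called higher (9.48%) and 3 lower (11.2%), and 14 of the 37 were not called. The median log2 fold change was 1.65, against -0.02 over all genes tested. The count of 23 calls turned on single libraries: it was 10 without M1 replicate 1, 11 without M1 replicate 2, 11 without M4 replicate 1 and 24 without M4 replicate 2, and 9 with the exchange. Where 1 replicate of a line is left out, the other is assumed to vary as the replicates of the other lines do. RSAD2, HERC5 and MX2 reached the filter's level in 4, 3 and 2 libraries, and RSAD2 and HERC5 did so only through M3 and M4. Without RSAD2 and HERC5, 18 genes were called higher and the median was 1.32. The calls of IRF7, OASL, DTX3L and BST2 held under all 11 alternatives, while that of USP18 held in 4, those of IFIH1, IFIT1, IFI6 and SAMD9L in 5, that of HERC5 in 5 of the 10 in which it was tested, and those of IFIT2, ISG15, PARP9 and IFITM3 in 6. M4 and M3 are both set against the same 2 M1 libraries, so the 2 comparisons are not independent.

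The M4 replicates were therefore also tested separately. With replicate 1 alone, 23 genes were higher than in M1 (6.84%) and 1 lower (5.44%), with a median of 2.02. With replicate 2 alone, 8 were higher (7.12%) and 3 lower (7.03%), with a median of 0.44. Those called higher with each replicate alone were BST2, DTX3L, IFIT3, IRF7, OAS2, OAS3, OASL and RSAD2, and IFITM2 was called lower with each. RSAD2 passed the filter only through M3 and M4, and no support is drawn from its calls. A further 15 were called higher with replicate 1 alone only, and 0 with replicate 2 alone only.

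**Figure D5:**
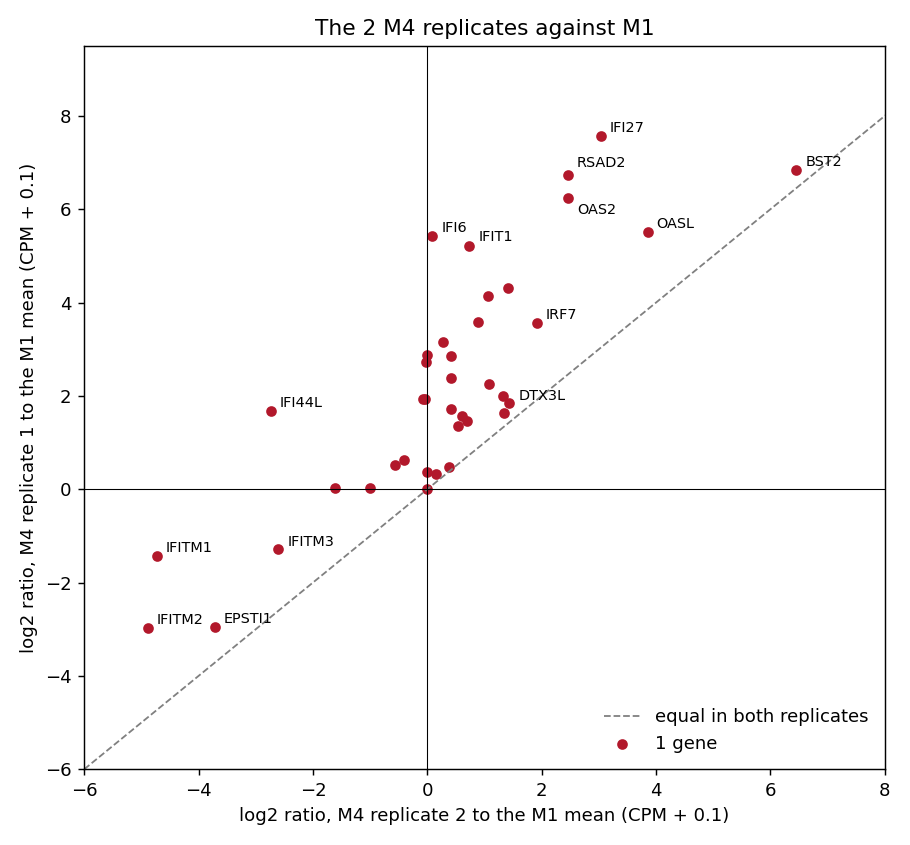
Log2 ratio of M4 replicate 1 (vertical axis) and of M4 replicate 2 (horizontal axis) to the mean of M1, with 0.1 CPM added, for each of the 39 genes. Points lie on or above the dashed line of equal ratios, BST2 and OASL are high on both axes, IFI6 and IFIT1 are high on the vertical axis only, and IFITM1, IFITM2, IFITM3 and EPSTI1 are low on both.

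Among the transcription factors, IRF7 was called higher in M4. IRF7, the factor that amplifies interferon production (chr11:612553-615983), was at 4.34 and 2.38 CPM (M1), 3.48 and 2.37 (M2), 3.16 and 2.38 (M3) and 40.8 and 12.9 (M4). Both M4 replicates were above the other 6 libraries, with a log2 fold change of 3.00 against M1 (SE 0.571, adjusted p = 0.00717) and 3.28 against M3 (SE 0.579, adjusted p = 0.0115).

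IRF9, the DNA-binding subunit of ISGF3 (chr14:24630443-24637252), was at 4.001 and 6.76 CPM (M1), 6.89 and 5.999 (M2), 8.97 and 3.08 (M3) and 35.9 and 5.28 (M4). STAT2, its partner (chr12:56735381-56753987), was at 29.4 and 34.1 CPM (M1), 21.7 and 23.3 (M2), 17.6 and 15.5 (M3) and 48.7 and 23.98 (M4). For both genes M4 replicate 2 fell among the levels of the other lines. IRF9 did not pass the test against M1 (log2 fold change 1.94, SE 0.858, adjusted p = 0.128) and neither did STAT2 (0.20, SE 0.296, adjusted p = 0.647), while STAT2 was called higher in M4 than in M3 (1.14, SE 0.300, adjusted p = 0.0393).

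Of the cytosolic RNA sensors, IFIH1, which encodes MDA5, was called higher in M4 than in M1 (log2 fold change 1.01, SE 0.267, adjusted p = 0.0244), with 12.6 and 13.7 CPM (M1) and 33.6 and 19.2 (M4). DHX58, which encodes LGP2, was at 0.943 and 2.18 CPM (M1) and 6.27 and 1.51 (M4) and was not called. In the IFIT family, whose products bind viral RNA or translation factors, 3 of the 4 genes were called higher and IFIT5 was not. IFIT2 (chr10:91043451-91069028) was at 2.56 and 2.60 CPM (M1), 1.56 and 1.55 (M2), 1.55 and 0.815 (M3) and 32.2 and 4.88 (M4). Its M4 replicates were both above the other libraries but 6.59-fold apart, and IFIT5, at 19.7 to 31.3 CPM over the 8 libraries, differed by 1.07-fold between them. IFIT3 was at 1.72 and 2.20 CPM (M1), 3.01 and 3.18 (M2), 4.11 and 2.65 (M3) and 40.8 and 5.39 (M4), and was called higher (log2 fold change 3.56, SE 0.844, adjusted p = 0.0182), as was IFIT1 (4.40, SE 1.31, adjusted p = 0.0391).

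Of the 3 IFITM genes, whose products block fusion of viruses with cell membranes, 2 were called lower in M4 and none higher. IFITM2 (chr11:303655-309397) was at 26.2 and 22.7 CPM (M1), 8.05 and 8.74 (M2), 26.9 and 21.9 (M3) and 3.03 and 0.730 (M4). IFITM3 (chr11:319676-329475) was at 135 and 396 CPM (M1), 204 and 194 (M2), 146 and 130.3 (M3) and 109 and 43.5 (M4). Both were lowest in M4. The log2 fold change against M1 was -3.68 for IFITM2 (SE 0.567, adjusted p = 0.00328) and -1.80 for IFITM3 (SE 0.555, adjusted p = 0.0448). Without M1 replicate 2, the library with the highest IFITM3 level and an assignment in doubt, IFITM3 was not called (-0.82), nor was it with the exchange (-1.15) or with M4 replicate 1 alone (-1.26). IFITM1 was at 1.32 and 20.7 CPM (M1), 12.9 and 11.8 (M2), 26.7 and 21.7 (M3) and 4.05 and 0.320 (M4). IFITM1, whose M1 replicates lay on either side of the M2 libraries, was not called (-2.31, SE 1.30, adjusted p = 0.216). Within M4 all 3 were still higher in replicate 1, by 12.7-fold for IFITM1, 4.15-fold for IFITM2 and 2.50-fold for IFITM3. The 3 genes are close copies of each other, so reads may have been shared between them.

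In the OAS family, OAS2, OAS3 and OASL were called higher in M4 and OAS1 was not. OASL, an OAS-like protein without synthetase activity that aids RNA sensing (chr12:121455566-121477049), was at 0.302 and 0.354 CPM (M1), 0.717 and 0.824 (M2), 0.796 and 1.04 (M3) and 19.6 and 6.09 (M4). Both M4 replicates were well above the rest, with a log2 fold change of 5.29 against M1 (SE 0.609, adjusted p = 0.000951), and OASL was called under all 11 alternatives. OAS3 had a log2 fold change of 1.70 (SE 0.239, adjusted p = 0.00213) and OAS2 of 6.21 (SE 1.32, adjusted p = 0.0123). OAS1 was at 16.8 and 14.0 CPM (M1) and 59.0 and 14.7 (M4), with M4 replicate 2 between the M1 replicates.

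ISG15 encodes a ubiquitin-like protein that is joined to other proteins or secreted (chr1:936518-949920). It was at 3.84 and 2.79 CPM (M1), 4.28 and 4.41 (M2), 2.78 and 1.94 (M3) and 59.8 and 6.995 (M4). Both M4 replicates were above all other libraries, and the log2 fold change against M1 was 3.33 (SE 0.865, adjusted p = 0.0252). HERC5, the ISG15 ligase (chr4:89378270-89427314), had 0 and 0 counts (M1), 6 and 4 (M2), 17 and 2 (M3) and 24 and 12 (M4), which is at least 5.81-fold more than M1 in M4 replicate 1 and at least 4.22-fold more in replicate 2. HERC5 passed the filter only through M3 and M4, and no support is drawn from its call. USP18, the protease that removes ISG15 and a gene with a close copy that may share its reads, was called higher (log2 fold change 1.18, SE 0.383, adjusted p = 0.0498), and UBE2L6 and HERC6 were not called. HERC6, a relative of HERC5, ran from 9.16 to 22.4 CPM over the 8 libraries and was highest in M4 replicate 1.

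The divergent pair PARP9 and DTX3L, which act together as an ADP-ribosyltransferase and ubiquitin ligase in DNA repair and interferon signaling, and PARP14 beside them on chromosome 3, were all called higher in M4. DTX3L (chr3:122283185-122294050) was at 28.0 and 28.4 CPM (M1), 34.2 and 35.8 (M2), 38.6 and 40.4 (M3) and 101 and 76.3 (M4). DTX3L was the tightest of these differences, with a log2 fold change of 1.65 (SE 0.162, adjusted p = 0.000515), and its M4 replicates were 1.33-fold apart. PARP9 was at 24.1 and 19.3 CPM (M1) and 72.0 and 28.9 (M4), and its M4 replicates were 2.49-fold apart. PARP14, another ADP-ribosyltransferase, was at 29.3 and 30.5 CPM (M1) and 82.4 and 48.6 (M4), with both M4 replicates above the other 6 libraries. PARP9 and DTX3L overlap at their starts on opposite strands.

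SAMD9 and SAMD9L, neighbors on chromosome 7 whose products restrict poxviruses and cell growth, were both called higher. SAMD9 (chr7:92728826-92747336) was at 43.6 and 17.8 CPM (M1), 50.2 and 49.9 (M2), 45.6 and 33.2 (M3) and 148 and 64.7 (M4). Both M4 replicates of SAMD9 were above the other 6 libraries (log2 fold change 1.79, SE 0.497, adjusted p = 0.0313). SAMD9L was at 1.73 and 1.88 CPM (M1) and 13.6 and 2.43 (M4), and its M4 replicate 2 lay inside the range of M2 and M3. In the group of IFI6, IFI27, IFI44 and IFI44L, IFI27 was called higher with a log2 fold change of 7.40 (SE 1.70, adjusted p = 0.0162) and IFI6 with 4.53 (SE 1.40, adjusted p = 0.0447). IFI6 was called although the groups overlapped. IFI44, a relative of IFI44L, was at 1.74 and 1.85 CPM (M1) and 16.8 and 2.19 (M4) and just missed the threshold (2.40, SE 0.786, adjusted p = 0.0517).

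BST2 in M4 against M1 had a log2 fold change of 6.76 (SE 0.496, adjusted p = 0.000226), and its M4 replicates were 1.31-fold apart. EPSTI1, an epithelial-stromal interaction gene (chr13:43460524-43566407), was called lower in M4 (-4.37, SE 1.07, adjusted p = 0.0181). EPSTI1 had 227 and 29 counts (M1), 60 and 43 (M2), 21 and 14 (M3) and 13 and 2 (M4), so that M1 replicate 1 stood above the other 7 libraries. Without that library the log2 fold change of EPSTI1 was -2.23 and it was not called, and the call was also lost without either M4 replicate. LGALS3BP, a secreted glycoprotein (chr17:76967320-76976029), was at 204 and 388 CPM (M1), 321 and 310.2 (M2), 314 and 392 (M3) and 371 and 328 (M4), with M4 inside the range of M1. TRIM22, an antiviral ubiquitin ligase, was at 22.7 and 44.2 CPM (M1) and 43.5 and 33.5 (M4) and was not called. MX1 and MX2, dynamin-like antiviral GTPases, were not called: MX1 was at 0.372 to 1.18 CPM over the 8 libraries, and MX2 had 28 and 6 counts in M1, 24 and 0 in M4 and 0 in M2 and M3.

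Set side by side per kilobase of exon, the order of the genes differed between libraries, also between replicates of M1. In M1 replicate 1 the highest levels were 59.7 CPM per kb for LGALS3BP, 47.4 for IFITM3 and 16.3 for IFITM2, and in M1 replicate 2 they were 139 for IFITM3, 113 for LGALS3BP and 14.2 for IFITM2. In M4 replicate 1 they were 148 CPM per kb for BST2, 108 for LGALS3BP, 103 for IFI6 and 69.0 for ISG15. In M4 replicate 2 they were 113 for BST2 and 95.9 for LGALS3BP, with IFI6 at 2.44 and ISG15 at 8.07.

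In M4 against M3, 2 carcinoma lines both grown without EGF, 9 genes were called higher (3.99%) and 1 lower (6.30%), with a median log2 fold change of 1.17 against -0.02 over all genes tested. The 9 were STAT2, IRF7, IFIH1, IFIT2, OASL, ISG15, IFI27, DTX3L and PARP14, and the lower gene was IFITM2. OASL rose by 3.80 on the log2 scale (SE 0.560, adjusted p = 0.00674), DTX3L by 1.17 (SE 0.159, adjusted p = 0.00543), IFIT2 by 3.97 (SE 0.823, adjusted p = 0.0196), ISG15 by 3.83 (SE 0.887, adjusted p = 0.0289) and IFI27 by 5.52 (SE 1.52, adjusted p = 0.0477). IFITM2 fell by 3.68 (SE 0.567, adjusted p = 0.00804). BST2, OAS2 and UBE2L6, the genes that were higher in M3 than in M1, did not pass the test between M4 and M3, with log2 fold changes of 0.67 (SE 0.380), -0.22 (SE 0.992) and -0.98 (SE 0.732).

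Again the count depended on single libraries, with 4 calls without M3 replicate 1, 5 without M3 replicate 2, 2 without M4 replicate 1, 20 without M4 replicate 2 and 5 with the exchange. With M4 replicate 1 alone, 19 genes were higher than in M3 (2.51%) and 1 lower (2.70%). With M4 replicate 2 alone, 1 was higher (1.17%) and 1 lower (1.91%), namely OASL and IFITM2, which were also called with replicate 1 alone. The medians were 1.67 and 0.22. OASL was the gene called higher under all 11 alternatives.

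Further genes of the interferon pathway were read from a second list, which without USP18, already described, held 55 genes, of which 54 had an identifier and 41 were tested. In M2 against M1, 0 were called by edgeR, with 6 higher and 4 lower at an unadjusted p under 0.05, and DESeq2 called IFNE higher and GBP2 lower. In M3 against M1, 1 was higher (8.02% of all genes tested), PSMB9, a subunit of the immunoproteasome, and 6 were lower (5.51%): the receptor subunit IFNGR1, the kinase JAK1, the factor IRF1, the RNA sensor TLR3, the GTPase GBP2 and CIITA, the master regulator of MHC class II genes. In M4 against M1, 9 were higher (IFNE, IRF5, DDX58, MB21D1, SOCS1, GBP3, CXCL11, TAP1 and PSMB9), against 9.48% of all genes, and 3 lower (IFNGR1, GBP2 and CIITA), against 11.2%. In M4 against M3, 5 were higher (IFNE, IRF1, DDX58, SOCS1 and GBP3), against 3.99%, and 0 lower, against 6.30%, with 5 lower at an unadjusted p under 0.05 and 0 by DESeq2. With the exchange of the 2 libraries, 0 of these genes were called in M2 against M1 and in M3 against M1, 4 higher and 2 lower in M4 against M1, and 2 higher and 0 lower in M4 against M3. At an unadjusted p under 0.05, edgeR gave with the exchange 0 and 0 in M2 against M1, and 4 higher and 7 lower in M3 against M1.

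The ligands were at low counts. IFNB1, which encodes interferon beta, had 29 counts in M4 replicate 1, 0 in M4 replicate 2, 2 in M2 replicate 1 and 0 elsewhere, which is at least 6.65-fold more in M4 replicate 1 than in replicate 2. IFNL1, a type III interferon, had 62 and 9 counts in M4, 2 in M1 replicate 1 and 0 elsewhere. Its near copies IFNL2 and IFNL3 had 26 and 22 counts in M4 replicate 1 and 0 in the other 7 libraries. IFNE, an interferon of epithelia, was the ligand with the most counts: 37 and 37 (M1), 110 and 96 (M2), 34 and 51 (M3) and 244 and 157 (M4). IFNE was called higher in M4 than in M1 (log2 fold change 2.21, SE 0.380, adjusted p = 0.00470), and its M4 replicates were at 2.15 and 2.01 CPM. IFNA1, an interferon alpha, had 0 and 3 counts (M1), 14 and 14 (M2), 3 and 4 (M3) and 8 and 13 (M4), with the most in M2 and more in M4 replicate 2 than in replicate 1. IFNK, interferon kappa, had 5 counts in M4 replicate 1 and 0 elsewhere. IFNA2, IFNW1 and IFNG had 0 counts in all 8 libraries.

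All 6 receptor genes of the list were counted in every library. IFNAR1, the type I receptor subunit, ran from 32.9 to 43.3 CPM over the 8 libraries. DDX58, which encodes the RNA sensor RIG-I, was at 12.6 and 12.6 CPM (M1), 13.6 and 14.2 (M2), 15.1 and 17.8 (M3) and 80.5 and 34.1 (M4). DDX58 was called higher in M4 than in M1 (2.19, SE 0.357, adjusted p = 0.00383) under all 11 alternatives. The negative regulator SOCS1 was at 0.459 and 0.256 CPM (M1) and 3.22 and 3.11 (M4) (3.14, SE 0.600, adjusted p = 0.00709). Outside the list of 39, 43 pathway genes had at least 20 counts in an M4 replicate. Of these, 7 were over 2-fold higher in replicate 1 (DDX58, CXCL11, IFNB1, IFNL1, IFNL2, IFNL3 and PSMB9), against 6.45% of all genes. Over 2-fold lower were 0, against 1.72%, and the median log2 ratio was 0.10 against 0.01. IFNB1, IFNL1, IFNL2 and IFNL3 met the level of 20 counts only through replicate 1, which fixed their direction.

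Markers of other cell types were looked at in the same libraries. Of the 7 leukocyte markers, the defining genes PTPRC and CD3E were at 0.04 CPM or less in every library, and the summed level was 9.39 to 54.3 CPM over the 8 libraries, with 54.3 and 41.4 in M4, of which CD68, a lysosomal gene, made 51.4 and 38.97. Both markers of plasmacytoid dendritic cells, CLEC4C and LILRA4, were at 0 in all libraries. The 2 endothelial markers summed to 0.326 CPM or less. The 4 fibroblast markers summed to 60.1 and 8.62 CPM (M1), 74.3 and 72.4 (M2), 10.1 and 15.7 (M3) and 7.56 and 6.43 (M4). The 6 epithelial markers were a basal mammary list. They summed to 9897 and 8269 CPM (M1), 13556 and 13473 (M2), 12051 and 11046 (M3) and 7007 and 5407 (M4), the lowest sums. KRT5 and KRT17 made most of each sum. KRT5, KRT14 and TP63 were lowest in M4, whereas KRT17 was lowest in M1. EPCAM was at 49.9 and 72.6 CPM (M1) and 166 and 199 (M4), and CDH1 at 185 and 220 (M1) and 222 and 211 (M4).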

How the data were processed

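The authors trimmed paired-end reads of poly A+ RNA with Trimmomatic, aligned them to hg19 (GRCh37) with STAR and counted them with RSEM on GENCODE release 19. Tool versions and the use of strand are not given in the sources used here. The deposited values are expected counts per gene, not normalized, with 12.8% not whole; they were rounded. Total counts ran from 69669970 to 107350344 per library, so a gene at 10 counts carries a large counting error, and floors of 3 counts cover counting error only.

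Groups and replicate numbers came from the sample labels. The lines were compared with edgeR 4.0.16 in R 4.3.3 (quasi-likelihood test, robust, TMM, filterByExpr, 1 coefficient per line over 8 libraries, 4 residual degrees of freedom), with Benjamini-Hochberg adjustment over 18431 genes and calls past 2-fold (log2 fold change beyond 1 in size) with adjusted p under 0.05. Standard errors were derived from the F statistic. DESeq2 1.42.0, other filters, scalings and sample sets were alternatives. Ratios between replicates used CPM with 0.1 added and at least 20 counts in 1 replicate. The steps were tested on simulated data. Tables and figures were made in Python 3.11.15 (pandas 2.3.3; matplotlib 3.10.9).

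Gene positions and exon lengths came from GENCODE release 44 mapped to GRCh37, and promoters from RefSeq on GRCh38.p14. The members and lists were chosen with earlier results of these data known. Values in every library are given for up to 5 called genes per comparison and direction with the largest change, the 6 with the highest mean CPM, the 5 with the widest M4 replicate ratio, and STAT2, IRF7 and IRF9; the further genes with such values were chosen after their values were seen. Results for 2 further genes of the lists are not reported here.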

Additional observations from a re-analysis of the deposited data

How the results depend on the processing

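The count of interferon-stimulated genes called was 1 in M2 against M1, 3 in M3 against M1, 23 in M4 against M1 and 10 in M4 against M3, and it moved with several choices. Without a filter on low counts it was 5, 13, 30 and 25, with DESeq2 2, 7, 24 and 20, and with only the 2 lines compared 2, 2, 9 and 7. With M1 replicate 2 and M2 replicate 1 exchanged it was 0, 1, 9 and 5, and OAS3 in M2 against M1 turned to -0.019 (adjusted p = 1, with a range of 5.09e-09 to 1 over its alternatives). With the adjusted p alone it was 2, 3, 24 and 11. Leaving out each replicate in turn gave 0 to 1, 1 to 4, 10 to 24 and 2 to 20 calls. The cause of these moves was not tested. DESeq2's size factors in edgeR and a filter of 50 counts in 2 libraries left each count within 1.5 times. Each called gene was also read under each alternative in which it was tested. Of these pairs of a gene and an alternative in M4 against M1, 174 stayed past the threshold and 77 fell below it. In M4 against M3 these were 81 and 29. The pairs reuse the same libraries and are not independent. The median log2 fold change of the members ranged from 0.44 to 2.02 in M4 against M1 and from 0.22 to 1.67 in M4 against M3. The 27 genes over 2-fold higher in M4 replicate 1 were 27 with DESeq2's size factors, 27 with total counts, 23 with 1 CPM added and 24 with at least 100 counts, alternatives chosen after seeing the data. A lone replicate and counts near 10 limit what the depth can show for HERC5, XAF1, MX2 and the interferon genes.

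Under a replicate block the counts of calls were 1, 2, 17 and 10. The deviations of same-numbered samples correlated at -0.0125 (M1 and M2), 0.0164 (M1 and M3) and -0.0695 (M1 and M4). The values were -0.0153 (M2 and M3), -1e-04 (M2 and M4) and 0.239 (M3 and M4). Same-numbered M3 and M4 samples thus shared part of their deviation, and the source of this was not tested. The labels name no shared batch, so the unpaired values are reported, and M4 against M3 carries this limit.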

Other observations

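Other genes that stood near the interferon-stimulated genes in the ratio of M4 replicate 1 to replicate 2 were named after their values were seen. They are single genes picked from the 50 highest ratios, and no gene group was tested. The metalloprotease gene ADAMTS1 had 867 counts in M4 replicate 1 and 33 in replicate 2, the autophagy gene ATG9B had 2234 and 128, and CD86, a costimulatory ligand, had 241 and 10. Among small proline-rich proteins of the cornified envelope, SPRR2A had 4065 and 245 counts, SPRR3 had 1199 and 81, and SPRR1A had 13505 and 1387. LCN2, which encodes the siderophore-binding lipocalin, had 12105 and 846 counts, PTGS2, the inducible cyclooxygenase, had 2587 and 158, the kallikrein KLK10 had 3792 and 392, and the activin antagonist FST had 15079 and 1460. These genes ranked between 10 and 46 of 16286 by the ratio, among the interferon-stimulated genes of the list. Whether they moved with the interferon-stimulated genes in the same cells was not tested.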
